A study of Mus musculus with 44 samples.

Results

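The mouse Schlafen genes were followed over 48 h of activation in CH12.LX, an established line of mouse B lymphoma cells. Members were taken by name: every probe set of the Affymetrix Mouse430_2 array annotated to a single symbol among Slfn1, Slfn2, Slfn3, Slfn4, Slfn5, Slfn8 and Slfn9, whatever its signal. This gave 11 probe sets for 7 genes, of 45037 probe sets and 18193 named genes: 3 for Slfn5, 2 each for Slfn1 and Slfn9, and 1 each for Slfn2, Slfn3, Slfn4 and Slfn8. The family was chosen from a measured value of these arrays, the difference of Slfn1 between 2,3,7,8-tetrachlorodibenzo-p-dioxin (TCDD) and vehicle, so the TCDD values of Slfn1 are given as a description with no test.

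Cells were plated at 100000 per ml and activated with lipopolysaccharide (LPS) of Salmonella typhosa, a bacterial cell wall component that activates B cells through Toll-like receptor 4. They were then given dimethyl sulfoxide (DMSO, 0.01%), the vehicle, or 10 nM TCDD, a dioxin that binds and activates the aryl hydrocarbon receptor (AhR) for a long time. The 44 arrays form 11 groups of 4. One group is of untreated cells at 0 h, and the other groups pair vehicle with TCDD at each of 8, 12, 24, 36 and 48 h. All 4 replicates of a group came from the same cell line and were handled on separate days. Untreated cells were taken at 0 h only, so activation, vehicle and time in culture cannot be told apart in the comparisons with them.

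Schlafen proteins share an N-terminal domain that in some members cuts or binds transfer RNA, and their genes are known as targets of type I interferon and of LPS. The mouse genes fall into short members (Slfn1 and Slfn2), intermediate ones (Slfn3 and Slfn4) and long ones with a helicase-like C-terminal part (Slfn5, Slfn8 and Slfn9). In lymphocytes and myeloid cells they have been linked to the control of growth: Slfn1 was described as a brake on thymocyte proliferation, and loss of Slfn2 leaves T cells unable to stay quiescent. They lie side by side on mouse chromosome 11.

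Levels are log2(signal + 16) of quantile-normalized values, so 4 is the lowest value possible and the median over all probe sets and arrays was 6.21. A difference of 1 on this scale is a doubling of signal + 16, and it understates the change of dim probe sets. Signals of different probe sets were not set against each other. Of the 11 probe sets, 8 had their highest group mean above 6.21, 1 of them in TCDD groups only (1458458_at of Slfn5). The other 3 stayed below it in every group: 1447614_at of Slfn1, 1427102_at of Slfn4 and 1442640_at of Slfn5. "Called" means an adjusted p under 0.05 in limma over all 45037 probe sets, and errors of differences are standard errors (SE) of that fit.

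The arrays had median signals of 45.2 to 99.2, and arrays of a group correlated with a median r of 0.974 (lowest 0.949); with 4 arrays a group, their number limits the precision. An earlier look at these data found 4 arrays standing apart in technical measures: replicates 3 and 4 of the untreated cells, replicate 4 of the vehicle cells at 12 h and replicate 2 of those at 48 h. Values without these 4 arrays are given beside the results that change without them. All groups share 1 estimate of the spread, so leaving these arrays out can change calls between groups that hold none of them. Cyp1a1, the classic AhR target and a check of the treatment, was higher under TCDD by 4.50 to 6.01 at the 5 times. All 6 measured B cell markers lay above 6.21 in untreated cells, and 5 or 6 of them in every other group.

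The order of the genes along the chromosome, in the RefSeq gene table, was Slfn5, Slfn9, Slfn8, Slfn10-ps (a pseudogene), Slfn2, Slfn1, Slfn4 and Slfn3. The promoters of 5 of them are shown: 4 because these genes had 24 h TCDD differences of 0.89 to 4.39 on the log2 scale, and Slfn9, which had 0.53, because its window is so like that of Slfn8. Each is the RefSeq window (GRCm38.p6) from 250 bases before to 50 bases after the annotated start, written 5′ to 3′ on the strand of the gene. Capitals mark the core of the interferon-stimulated response element (ISRE; GAAA, any 2 bases and GAAA, on either strand) in Slfn5, Slfn8 and Slfn9, and the stretch ACTTCCTGG in Slfn1 and Slfn2, which Slfn3 and Slfn4, not shown, hold too.
Slfn1, chr11:83116570-83116869, plus strand: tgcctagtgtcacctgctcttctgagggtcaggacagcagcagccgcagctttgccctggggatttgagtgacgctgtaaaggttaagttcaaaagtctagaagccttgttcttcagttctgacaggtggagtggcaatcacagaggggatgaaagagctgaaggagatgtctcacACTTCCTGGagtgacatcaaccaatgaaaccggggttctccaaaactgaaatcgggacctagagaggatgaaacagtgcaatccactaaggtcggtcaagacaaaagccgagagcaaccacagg
Slfn2, chr11:83064862-83065161, plus strand: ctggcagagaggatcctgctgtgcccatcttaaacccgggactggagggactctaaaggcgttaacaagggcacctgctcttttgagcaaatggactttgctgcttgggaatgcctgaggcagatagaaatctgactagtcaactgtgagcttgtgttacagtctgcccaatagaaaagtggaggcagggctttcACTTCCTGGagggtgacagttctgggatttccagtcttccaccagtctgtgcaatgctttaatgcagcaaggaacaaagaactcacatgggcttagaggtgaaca
Slfn5, chr11:82951852-82952151, plus strand: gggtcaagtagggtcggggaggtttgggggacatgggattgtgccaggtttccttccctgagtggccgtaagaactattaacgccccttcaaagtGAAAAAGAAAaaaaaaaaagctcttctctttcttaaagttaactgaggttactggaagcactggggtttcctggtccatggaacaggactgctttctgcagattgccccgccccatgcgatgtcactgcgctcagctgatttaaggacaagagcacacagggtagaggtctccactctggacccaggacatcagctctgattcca
Slfn8, chr11:83020761-83021060, minus strand: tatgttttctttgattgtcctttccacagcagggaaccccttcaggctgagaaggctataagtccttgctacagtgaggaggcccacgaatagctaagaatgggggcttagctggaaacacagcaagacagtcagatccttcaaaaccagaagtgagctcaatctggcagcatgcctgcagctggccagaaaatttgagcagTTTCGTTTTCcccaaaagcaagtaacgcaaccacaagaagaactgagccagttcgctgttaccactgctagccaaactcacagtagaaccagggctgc
Slfn9, chr11:82991781-82992080, minus strand: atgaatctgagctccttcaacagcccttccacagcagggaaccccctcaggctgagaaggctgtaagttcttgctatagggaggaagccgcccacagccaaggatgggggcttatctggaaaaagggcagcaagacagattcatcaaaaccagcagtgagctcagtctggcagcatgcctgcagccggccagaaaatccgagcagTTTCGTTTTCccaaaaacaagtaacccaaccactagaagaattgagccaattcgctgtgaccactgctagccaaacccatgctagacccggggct

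The ISRE core is a sequence read by transcription factors that type I interferon activates. It matched the promoters of 3 of the 7 members and 3.44% of all 32851 promoters of the same length. In Slfn5 the match was GAAAAAGAAA, whose first base lies 155 bases before the start. In Slfn8 and Slfn9 it was the same TTTCGTTTTC, on the other strand, 48 and 45 bases before the start; for a second annotated start of Slfn8 the same match lies 136 bases before. The Slfn8 and Slfn9 windows were 80.5% identical over their alignment, against 41.6% to 49.4% for every other pair of members. Slfn1, Slfn2, Slfn3 and Slfn4 had no match to these letters in the window.

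The gamma-activated sequence TTCNNNGAA, on either strand, matched 0 of the 7 members and 8.3% of all promoters. The AhR core GCGTG, on either strand, matched 0 of the 7 and 32.4% of all promoters. The stretch ACTTCCTGG, searched on both strands and chosen after the sequences were seen, lies in Slfn1, Slfn2, Slfn4 and Slfn3 at 74, 55, 73 and 42 bases before the start, and in 0.843% of all promoters. A match is a run of letters in a window, not a site shown to be bound, and no match says only that the letters are not in that window.

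Slfn1 had the widest span of levels of the 11 probe sets, through its probe set 1418612_at. In untreated cells its levels were 5.00, 6.01, 5.53 and 7.05 (mean 5.90 ± 0.87, SD, n = 4). In vehicle cells the 4 arrays read 6.61, 6.63, 7.17 and 6.67 at 8 h, 5.39, 6.26, 6.57 and 4.63 at 12 h, 5.43, 4.24, 6.38 and 5.46 at 24 h, 5.32, 6.04, 4.52 and 5.33 at 36 h, and 4.55, 4.40, 4.24 and 4.99 at 48 h. The vehicle arrays were therefore all above 6.21 at 8 h and all below 5 at 48 h, close to the lowest value possible.

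Under TCDD the same probe set read 7.13, 7.07, 8.01 and 7.70 at 8 h, 8.61, 8.57, 8.46 and 8.51 at 12 h, and 9.65, 9.88, 9.95 and 9.58 at 24 h. It then read 8.91, 9.31, 8.45 and 8.04 at 36 h and 8.07, 8.08, 6.80 and 7.35 at 48 h. The 4 TCDD arrays lay above the 4 vehicle arrays of the same time at 12, 24, 36 and 48 h, and the ranges overlapped at 8 h. On the linear scale the median signal at 24 h was 857 under TCDD and 27.5 in vehicle cells.

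The TCDD minus vehicle difference of Slfn1 was 0.70 at 8 h, 2.83 at 12 h, 4.39 at 24 h, 3.38 at 36 h and 3.03 at 48 h, each ± 0.40 (SE), and it was positive on 4 of 4 days at every time. Without the 4 arrays that stood apart it was 2.47 at 12 h and 2.98 at 48 h. The size depends on the pseudocount, since the vehicle signal is dim: at 24 h it was 5.31 with a pseudocount of 1 and 3.31 with 64. These are RNA values of whole cultures, so more responding cells and more RNA per cell cannot be told apart. In the order of the 11 groups, TCDD at 24 h stood first with no overlap with TCDD at 36 h, and TCDD at 36 and 12 h overlapped each other. Below these came TCDD at 48 and 8 h, then vehicle at 8 h, untreated cells and vehicle at 12, 24, 36 and 48 h, each overlapping its neighbour.

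In vehicle cells Slfn1 did not pass the test against untreated cells at 8 h (0.87 ± 0.40, adjusted p = 0.209), and without replicate 4 of the untreated cells it did (1.26, adjusted p = 0.0466). At 48 h it was lower by 1.35 (log2 change -1.35 ± 0.40, adjusted p = 0.0127), on 4 of 4 days and with no overlap. That call rests on a few arrays: it was lost without replicate 4 of the untreated cells (-0.97, adjusted p = 0.101) and without the 4 arrays that stood apart (-0.91, adjusted p = 0.209). Leaving out day 2 or 4 ended it too (-1.27 and -1.12, adjusted p = 0.0588 and 0.0916). With a pseudocount of 64 the change was -0.63 (adjusted p = 0.0578) and with 1 it was -2.46 (adjusted p = 0.00449).

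The other Slfn1 probe set, 1447614_at, disagreed with the first. Its group means stayed between 4.82 and 5.60, below the median of all values, and its TCDD differences were 0.29, -0.40, 0.04, 0.30 and -0.53 from 8 to 48 h. Across the 11 group means the 2 probe sets had r = -0.37. At 24 h the TCDD arrays of 1447614_at read 4.43, 4.52, 4.85 and 5.86 and the vehicle arrays 5.61, 4.63, 4.94 and 4.31. The statements on Slfn1 therefore rest on 1418612_at alone.

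**Figure D1:**
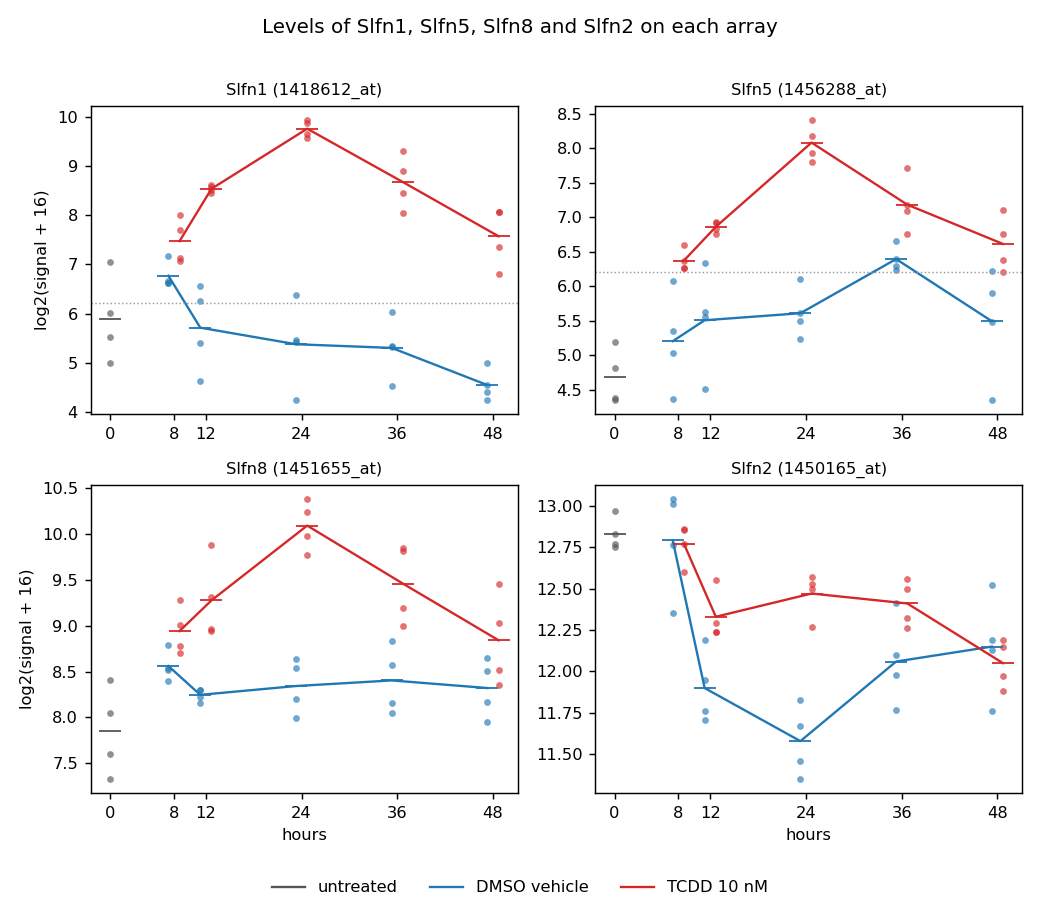
Level of Slfn1, Slfn5, Slfn8 and Slfn2 in log2(signal + 16) on each of the 44 arrays against hours of culture; points are arrays, horizontal marks are group means, and lines join the means of vehicle and of TCDD groups. The dotted line, drawn where it lies within the range of the panel, is the median of all probe set values (6.21); TCDD arrays stand apart from vehicle arrays at 24 h in all 4 panels, and Slfn2 falls in vehicle cells between 8 and 12 h.

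Slfn2, the other short member, was at a high level from the start. In untreated cells 1450165_at read 12.75, 12.97, 12.83 and 12.77 (12.83 ± 0.10, SD, n = 4), and in vehicle cells at 8 h it read 12.35, 12.76, 13.01 and 13.04. The vehicle arrays then read 11.71, 11.76, 12.19 and 11.95 at 12 h and 11.35, 11.67, 11.83 and 11.46 at 24 h. They read 11.77, 12.41, 11.98 and 12.10 at 36 h and 12.13, 12.52, 11.76 and 12.19 at 48 h. From 12 h on every vehicle array lay below all 4 untreated arrays.

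Against untreated cells Slfn2 was at -0.04 ± 0.15 at 8 h (adjusted p = 0.94) and fell by 0.93 at 12 h (adjusted p = 2.32e-05), 1.25 at 24 h (adjusted p = 1.14e-07), 0.77 at 36 h (adjusted p = 0.000316) and 0.68 at 48 h (adjusted p = 0.000719), on 4 of 4 days each time. The 24 h value is a 2.38-fold lower signal + 16. Most of the fall lay between 8 and 12 h (-0.89 ± 0.15, adjusted p = 0.00221, 4 of 4 days), the 1 step of the vehicle time course in which any member was called (1 of 11 member probe sets, against 0.269% of all probe sets). From 24 to 36 h it regained 0.49 ± 0.15, which was not called (adjusted p = 0.0744) but was called with the day as a block (adjusted p = 0.03) and without vehicle replicate 1 at 36 h (0.59, adjusted p = 0.0475).

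At 24 h Slfn2 was higher under TCDD than in vehicle cells. At 24 h the TCDD arrays read 12.50, 12.53, 12.57 and 12.27, all above the 4 vehicle arrays and all below the 4 untreated ones. The TCDD minus vehicle difference was -0.02 at 8 h, 0.43 at 12 h (adjusted p = 0.159), 0.89 ± 0.15 at 24 h (adjusted p = 0.000148, higher on 4 of 4 days), 0.34 at 36 h (adjusted p = 0.433) and -0.10 at 48 h. The TCDD effect on Slfn2 differed between times (F = 7.04, adjusted p = 0.0261; 0.00679 with the day as a block), the 1 member of 9 tested for which this was called, against 1.46% of all probe sets. That call was lost on leaving out any 1 of 5 arrays at 24 h (vehicle replicates 1 and 4 and TCDD replicates 1, 2 and 3; adjusted p = 0.052 to 0.0669).

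In the order of the groups for Slfn2, untreated cells and both 8 h groups stood highest and overlapped, the 4 later TCDD groups lay between 12.05 and 12.47, and vehicle cells at 24 h were lowest at 11.58. Across the 11 group means, Slfn2 and Slfn1 (1418612_at) had r = 0.38.

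The intermediate member Slfn3 (1421644_at) declined in vehicle cells. Untreated arrays read 7.55, 7.45, 7.08 and 6.43, vehicle arrays at 36 h 6.58, 6.74, 6.15 and 6.36, and those at 48 h 6.52, 5.94, 5.83 and 6.14. The ranges overlapped through replicate 4 of the untreated cells alone, 1 of the 4 arrays that stood apart. The change was -0.67 ± 0.19 at 36 h (adjusted p = 0.0159) and -1.02 ± 0.19 at 48 h (adjusted p = 9.58e-05), lower on 4 of 4 days at both times. Without the 4 arrays these changes were -1.04 and -1.34, and the 24 h change of -0.42 (adjusted p = 0.23) became -0.79 and was called (adjusted p = 0.0157), as it was without untreated replicate 4 alone (-0.65, adjusted p = 0.0238). The 36 h call was lost without vehicle replicate 3 or untreated replicate 1 or 2 (-0.53 to -0.57, adjusted p = 0.0745 to 0.0828). Leaving out day 1, 2 or 3 ended it too (-0.57 to -0.66, adjusted p = 0.078 to 0.163).

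Under TCDD the group means of Slfn3 were 6.79, 7.08, 7.13 and 7.15 at 8, 12, 24 and 36 h. The untreated mean was 7.13, with replicate 4 at 6.43 and the other 3 arrays between 7.08 and 7.55. At 36 h the TCDD arrays read 6.98, 7.39, 7.32 and 6.93, all above the vehicle arrays. The difference there was 0.70 ± 0.19 (adjusted p = 0.0633), not called, and it was called with the day as a block (adjusted p = 0.0304) and without the 4 arrays that stood apart (adjusted p = 0.0188). None of the 4 arrays is in the 36 h groups, so leaving them out changed the SE (to 0.17) and not the difference. At 48 h the difference was 0.54 (adjusted p = 0.169).

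Slfn4, best known from macrophages and other myeloid cells, was dim in every group (1427102_at, group means 5.01 to 6.06), and no comparison of it was called. Its largest TCDD difference was 1.05 ± 0.45 at 36 h (adjusted p = 0.423), where the TCDD arrays read 6.39, 6.36, 6.03 and 5.44 and the vehicle arrays 4.62, 4.63, 4.96 and 5.83. These ranges overlapped. A probe set shared by Slfn4 and Slfn3 (1450322_s_at), which the single-symbol rule leaves out, had group means of 5.83 to 6.77 and was not called under TCDD at any time (0.85 ± 0.32 at 36 h, adjusted p = 0.284).

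Among the long members, Slfn5 had the largest tested TCDD difference. Its probe set 1456288_at read 4.83, 5.19, 4.38 and 4.36 in untreated cells, near the lowest value possible. At 24 h the vehicle arrays read 6.11, 5.23, 5.61 and 5.50 and the TCDD arrays 7.81, 7.93, 8.41 and 8.17. Every TCDD array lay above every vehicle array by more than a log2 unit at that time.

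The TCDD minus vehicle difference of 1456288_at was 2.47 ± 0.33 at 24 h (adjusted p = 2.61e-06, higher on 4 of 4 days), a 5.54-fold higher signal + 16. It was 1.35 ± 0.33 at 12 h (adjusted p = 0.0154), and this call was lost without vehicle replicate 1 of that time (1.02, adjusted p = 0.116). The 12 h call was also lost without day 1, 2 or 4 (1.06 to 1.37, adjusted p = 0.0506 to 0.207) and with a pseudocount of 1 (1.88, adjusted p = 0.0878). At 8, 36 and 48 h the difference was 1.17 (adjusted p = 0.0837), 0.79 (adjusted p = 0.381) and 1.12 (adjusted p = 0.0612), none called. The 8 h difference was called without the 4 arrays that stood apart (1.17, adjusted p = 0.0314) and without vehicle replicate 2 (1.46, adjusted p = 0.0203), and the 48 h one without vehicle replicate 3 (1.36, adjusted p = 0.0231). None of the 4 arrays is in the 8 h groups, so leaving them out changed the SE there (to 0.29) and not the difference. Without vehicle replicate 2, 1 of the 4 arrays that stood apart, the 48 h difference was 0.74 and not called. The arrays of the treatments did not overlap at 8 and 36 h either, and they did at 48 h. The smaller value at 36 h went with a higher vehicle level, 6.65, 6.39, 6.30 and 6.24, against TCDD arrays at 7.17, 7.71, 7.09 and 6.76.

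In vehicle cells Slfn5 (1456288_at) was higher than in untreated cells at 36 h, by 1.71 ± 0.33 (adjusted p = 0.000241, 4 of 4 days), and by 1.39 (adjusted p = 0.0106) without the 4 arrays that stood apart. At 8, 12, 24 and 48 h the differences were 0.52, 0.82, 0.92 and 0.81 and were not called (adjusted p = 0.084 to 0.428). Without the 4 arrays that stood apart they were 0.20, 0.46, 0.60 and 0.87, not called either. At 48 h the vehicle arrays spread from 4.35 to 6.23, and without the lowest of them, replicate 2, the difference of 0.81 became 1.19 and was called (adjusted p = 0.0052). Without vehicle replicate 1 at 12 h the difference of 0.82 became 1.15 (adjusted p = 0.0191). Without untreated replicate 2 the differences at 24 and 48 h were 1.09 (adjusted p = 0.0496) and 0.97 (adjusted p = 0.0489), both called.

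The 3 Slfn5 probe sets did not agree. Probe set 1458458_at followed the first at 24 h, with TCDD arrays at 6.10, 6.37, 6.90 and 6.64 and vehicle arrays at 4.43, 4.52, 4.41 and 4.31, a difference of 2.09 ± 0.31 (adjusted p = 2.21e-05). It was not called at 8, 12 or 36 h (0.25, 0.70 and 0.92), nor at 48 h (1.03 ± 0.31, adjusted p = 0.0743; 0.0499 with the day as a block; 1.24 with adjusted p = 0.0359 without vehicle replicate 3). Because its vehicle level sits at the bottom of the scale, the 24 h size was 3.58 with a pseudocount of 1 and 1.01 with 64, called with both. Probe set 1442640_at stayed between 4.64 and 5.50 in all 11 groups and was not called under TCDD at any time; its largest difference was -0.86 ± 0.27 at 8 h (adjusted p = 0.169). The first 2 had r = 0.88 across the 11 group means.

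Slfn8 (1451655_at) was above the median of all values throughout. Untreated arrays read 7.33, 7.61, 8.41 and 8.04, and vehicle group means kept to 8.25 to 8.56 from 8 to 48 h. At 24 h the vehicle arrays read 7.99, 8.64, 8.53 and 8.20 and the TCDD arrays 10.24, 10.38, 9.98 and 9.77. All TCDD arrays lay above all vehicle arrays at 12, 24 and 36 h, and the ranges overlapped at 8 and 48 h.

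The TCDD difference of Slfn8 was 0.38 at 8 h (adjusted p = 0.812), 1.03 ± 0.24 at 12 h (adjusted p = 0.0129), 1.75 ± 0.24 at 24 h (adjusted p = 6.58e-06), 1.06 ± 0.24 at 36 h (adjusted p = 0.0146) and 0.52 at 48 h (adjusted p = 0.378), positive on 4 of 4 days at every time. At 24 h this is a 3.36-fold higher signal + 16. The 12 h call was lost without TCDD replicate 2 (0.83, adjusted p = 0.0989) and without day 1, 2 or 4 (0.85 to 1.15, adjusted p = 0.0543 to 0.222). The 36 h call was lost without vehicle replicate 3 or 4 or TCDD replicate 1 or 2 (0.93 to 0.98, adjusted p = 0.0627 to 0.0908). Leaving out any 1 day ended it too (0.99 to 1.09, adjusted p = 0.0769 to 0.121). Whether the effect differed between times was not called (adjusted p = 0.126; 0.039 with the day as a block). Against untreated cells the vehicle level at 8 h was 0.71 ± 0.24 higher and was not called (adjusted p = 0.059; 0.0295 with the day as a block, 1.09 with adjusted p = 0.0124 without the 4 arrays that stood apart, and 0.90 with adjusted p = 0.0197 without untreated replicate 3 alone).

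Slfn9, whose promoter window is so like that of Slfn8, showed smaller TCDD differences. Probe set 1436472_at read 8.63, 8.60, 8.66 and 8.57 under TCDD at 24 h and 8.23, 8.07, 8.11 and 7.91 in vehicle cells, without overlap. The difference was 0.53 ± 0.30 (adjusted p = 0.618), positive on 4 of 4 days, and it was called without the 4 arrays that stood apart (0.53 ± 0.12, adjusted p = 0.0058). None of the 4 arrays is in the 24 h groups, so leaving them out changed the SE and not the difference. Untreated replicate 4, 1 of those 4 arrays, read 4.94, against 7.60, 7.54 and 7.81 in the other untreated arrays. At 8, 12, 36 and 48 h the TCDD differences were 0.27, 0.37, 0.15 and 0.11, none called. The difference in size between Slfn8 and Slfn9 was not tested.

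Against untreated cells Slfn9 (1436472_at) was called higher in vehicle cells at all 5 times, by 1.02, 0.93, 1.11, 1.17 and 0.85 from 8 to 48 h (adjusted p = 0.00629 to 0.0412). These sizes rest on untreated replicate 4. Without it they were 0.34 (adjusted p = 0.103), 0.25 (adjusted p = 0.272), 0.43 (adjusted p = 0.0314), 0.49 (adjusted p = 0.0076) and 0.17 (adjusted p = 0.43), so of these the 24 and 36 h calls were kept. The 8 h call was also lost without vehicle replicate 3 (0.98, adjusted p = 0.0596), the 12 h call without any 1 of the 4 vehicle arrays (0.89 to 0.96, adjusted p = 0.0648 to 0.087), and the 48 h call without vehicle replicate 2, 3 or 4 (0.76 to 0.88, adjusted p = 0.0585 to 0.113). The other Slfn9 probe set, 1458803_at, had group means of 6.42 to 6.91 and was not called in any comparison.

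**Figure D2:**
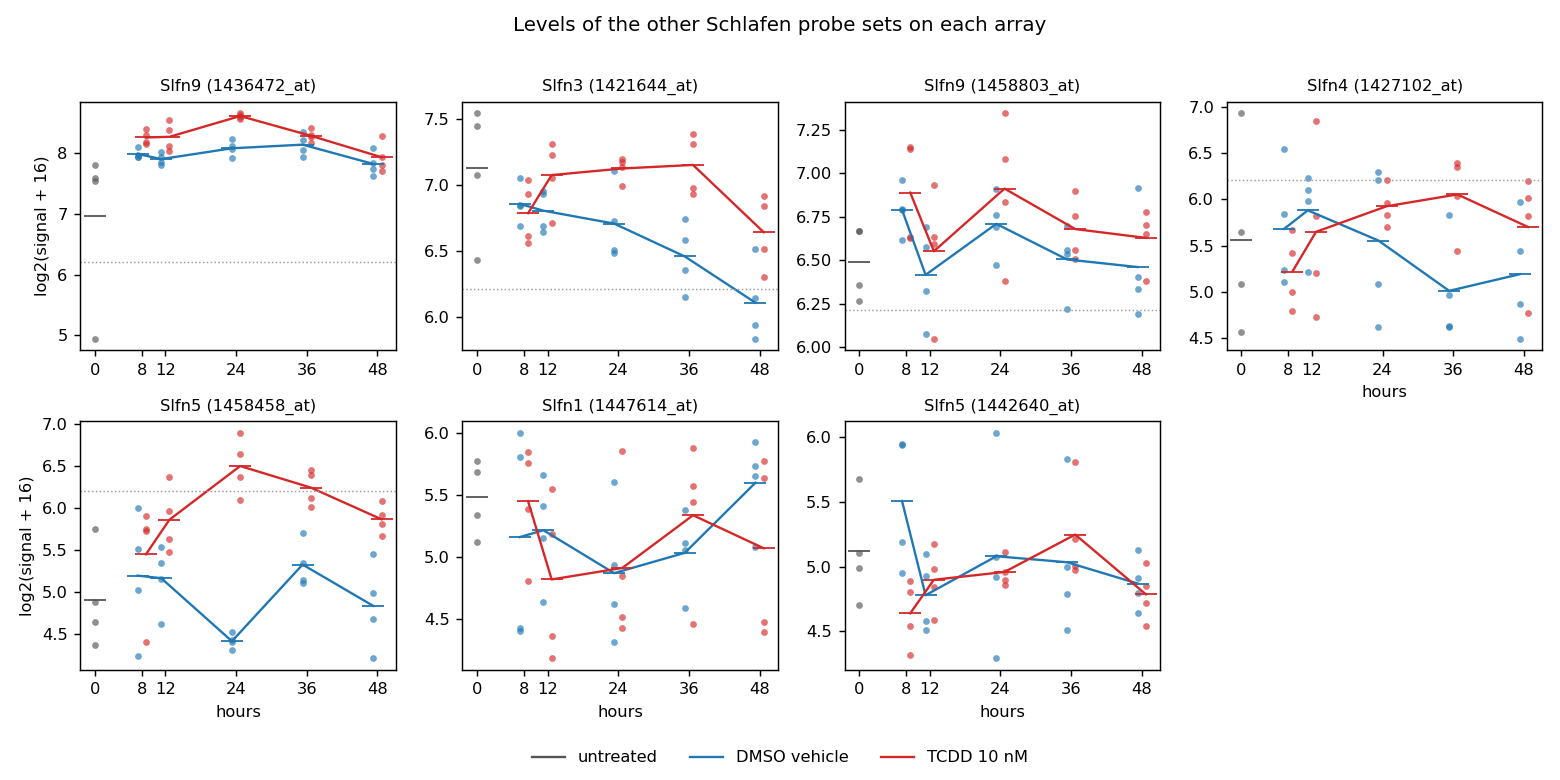
Level in log2(signal + 16) of the other 7 Schlafen probe sets on each of the 44 arrays against hours of culture; points are arrays, horizontal marks are group means, lines join vehicle means and TCDD means, and each panel has its own axis. The dotted line, shown in panels whose range holds it, is the median of all probe set values (6.21); untreated replicate 4 of Slfn9 (1436472_at) lies at 4.94, and Slfn3 declines in vehicle cells to 48 h.

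Counted over the family, vehicle cells differed from untreated cells in 1, 2, 2, 4 and 4 of 11 member probe sets at 8, 12, 24, 36 and 48 h. Over all probe sets 9.67%, 10.0%, 7.63%, 12.3% and 19.3% were called in these comparisons. A count of 1 or 2 of 11 at 8, 12 and 24 h is near that background; with the day as a block the 8 h count was 2. The 4 called at 36 h were Slfn9 and Slfn5 (higher) and Slfn2 and Slfn3 (lower), and the 4 at 48 h were Slfn9 (higher) and Slfn1, Slfn2 and Slfn3 (lower). The later steps of the vehicle time course were 12 to 24, 24 to 36 and 36 to 48 h. In these limma called 0 of 11, against 2.75%, 2.59% and 5.17% of all probe sets. With the day as a block the member counts were 0, 1 and 0. An unadjusted limma p under 0.05 was reached by 2, 3 and 1 of the 11, against 5590, 5782 and 7271 of all 45037 probe sets.

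Under TCDD, leaving Slfn1 out, 0, 2, 4, 1 and 0 of 9 member probe sets were called from 8 to 48 h, all higher; with the day as a block the counts were 0, 2, 4, 2 and 1. Without the block the shares of all probe sets called were 1.03%, 2.27%, 2.02%, 1.33% and 2.36%. Since the family was proposed from this contrast, nothing is read from these counts. The 4 at 24 h were Slfn2, Slfn8 and both responding Slfn5 probe sets. Limma called 0 at 8 and 48 h, where 2 and 4 of the 9 had an unadjusted p under 0.05. Over all 45037 probe sets, 3598 and 5368 did. The 2 at 8 h were both of Slfn5 and went opposite ways (1.17 for 1456288_at and -0.86 for 1442640_at). The median difference of the 9 was 0.10, 0.37, 0.53, 0.70 and 0.51 at the 5 times, against -0.02 over all probe sets at 24 h. Of all 11 probe sets, 7 had their most positive TCDD difference at 24 h and 4 at 36 h; among these 4, the difference largest in size was a negative one for 1442640_at of Slfn5 (-0.86 at 8 h) and 1447614_at of Slfn1 (-0.53 at 48 h).

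**Figure D3:**
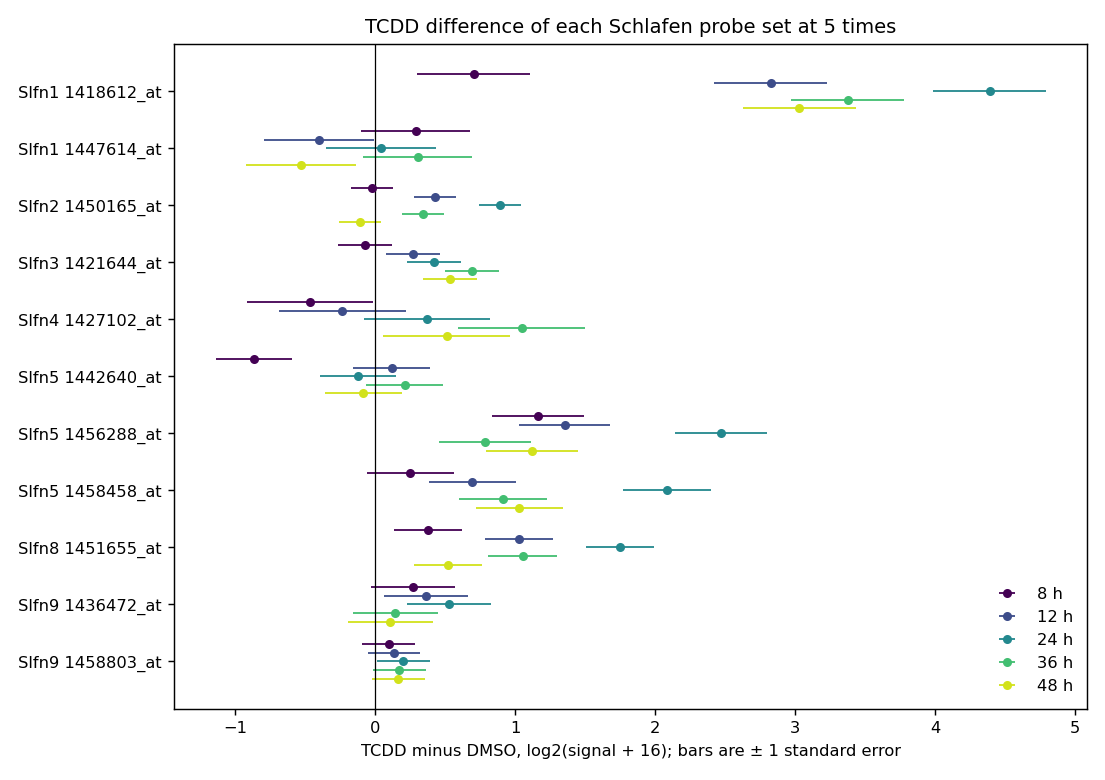
TCDD minus vehicle difference in log2(signal + 16) of each of the 11 Schlafen probe sets (rows) at 8, 12, 24, 36 and 48 h (colours); bars are ± 1 standard error of the limma fit, from 4 arrays a group. The 24 h difference is 4.39 for Slfn1 (1418612_at), 2.47 and 2.09 for 2 Slfn5 probe sets, 1.75 for Slfn8 and 0.89 for Slfn2, while 1447614_at of Slfn1 and 1442640_at of Slfn5 lie near 0 at that time.

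The measured genes in or beside the cluster that are not members had limma adjusted p-values of 0.15 to 0.982 under TCDD at 24 h; how far their differences lie from that of Slfn1 was not tested. Slfn10-ps, which lies between Slfn8 and Slfn2, had group means of 7.11 to 8.55 and a difference of 0.35 ± 0.41 (adjusted p = 0.899). Slfn5os, an antisense transcript beside Slfn5, was at 0.16 (adjusted p = 0.543), and AI662270, the next measured gene beyond Slfn3, at 0.27 (adjusted p = 0.7). On the other side, Unc45b, a myosin chaperone gene, was at 0.85 (adjusted p = 0.15), Nle1 at -0.37 (adjusted p = 0.689) and Fndc8 at 0.14 (adjusted p = 0.974). Unc45b, at a highest group mean of 5.81, was called at 36 h only (1.43 ± 0.29, adjusted p = 0.00275).

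**Figure D4:**
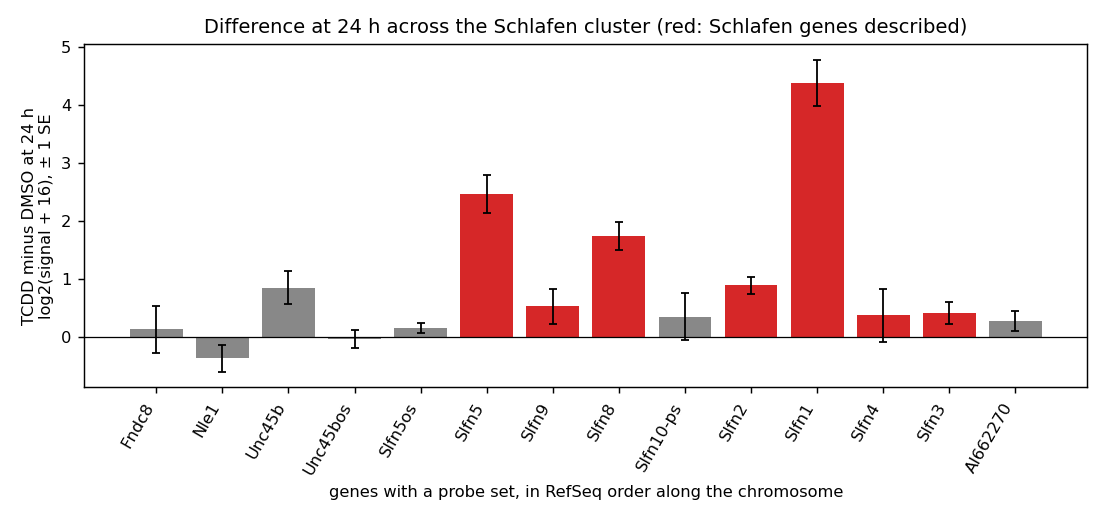
TCDD minus vehicle difference at 24 h in log2(signal + 16) for each gene with a probe set (its brightest) in the RefSeq gene order of the Schlafen cluster; bars start at 0, error bars are ± 1 standard error, red bars are the 7 Schlafen genes and grey bars their neighbours. Slfn1 (4.39), Slfn5 (2.47) and Slfn8 (1.75) stand up from genes between them such as Slfn9 (0.53) and Slfn10-ps (0.35).

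Interferon-inducible genes, the group to which Schlafen genes are usually assigned, moved in the same cells. Of a list of 25 measured genes (27 in the list; Isg15 and Ifi44 were not analysed here), 2, 16, 23, 15 and 10 were called higher under TCDD from 8 to 48 h and 0 lower. With the day as a block 3, 18, 24, 21 and 10 of the list were called. Of all probe sets 1.03%, 2.27%, 2.02%, 1.33% and 2.36% were called in these comparisons without the block. With the block 911, 1970, 1650, 1252 and 2012 of 45037 were. With 1 probe set per gene, as in the list, 403, 916, 728, 560 and 870 of 18193 genes were called without the block. The median difference of the list was 0.40, 1.09, 2.01, 1.07 and 0.53, and over all genes it was -0.02 at 24 h. At 24 h the list ran from 0.28 to 4.32. It was led by Oasl2 (4.32 ± 0.33), an oligoadenylate synthetase-like gene, Ifit3 (3.66 ± 0.26), Ifit1 (3.61 ± 0.32), which binds viral RNA, and Oas3 (3.38 ± 0.37). For 22 of the 25 genes the most positive difference was that at 24 h. The 24 h differences of Slfn5 (2.47) and Slfn8 (1.75) lay within that range, as did those of Slfn2 (0.89), Slfn9 (0.53), Slfn3 (0.42) and Slfn4 (0.37). The difference of Slfn1 was 4.39 ± 0.40, beside 4.32 ± 0.33 for Oasl2. The family was chosen from the Slfn1 difference, so nothing is read from its place beside the list. The range is so wide that it holds differences that were not called, such as those of Slfn9, Slfn3 and Slfn4. Lying within it therefore shows no likeness to these genes.

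**Figure D5:**
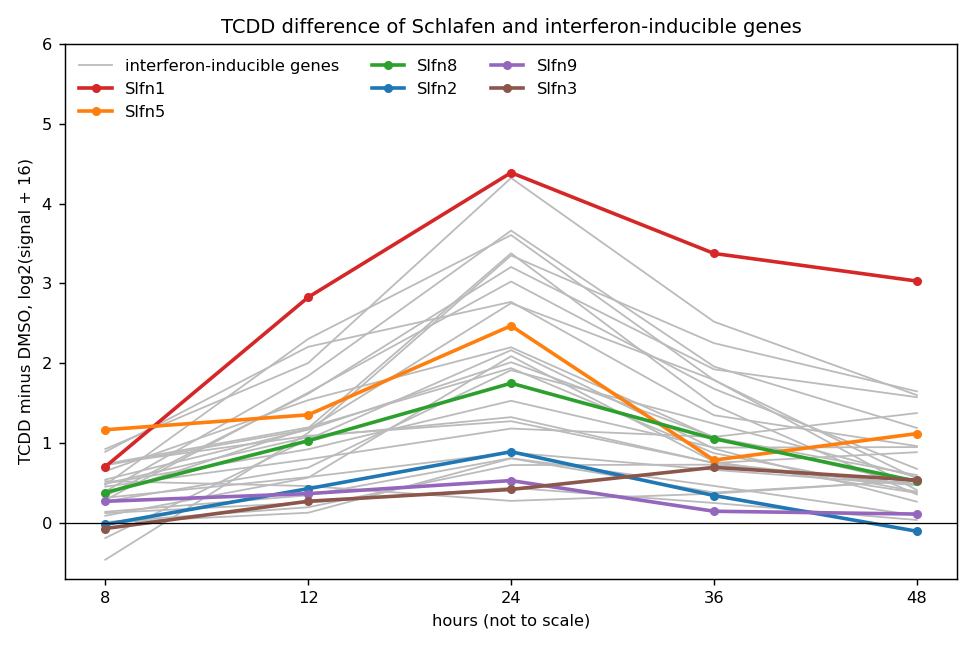
TCDD minus vehicle difference in log2(signal + 16) at 8, 12, 24, 36 and 48 h (evenly spaced, not to scale) for 6 Schlafen genes (colours, brightest probe set each) and 25 interferon-inducible genes (grey). At 24 h the interferon-inducible genes run from 0.28 to 4.32, with a median of 2.01. The family was chosen from the difference of Slfn1, so nothing is read from its place beside them.

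In vehicle cells 10, 9, 9, 18 and 19 of the same 25 genes were higher than in untreated cells from 8 to 48 h, with 1 lower at 24 h and 0 lower at the other times. With the day as a block 13, 11, 11, 19 and 20 of the 25 were called. Of all probe sets 9.67%, 10.0%, 7.63%, 12.3% and 19.3% were called in these comparisons without the block. With the block 5957, 6125, 4947, 7321 and 10456 of 45037 were. With 1 probe set per gene 2633, 2640, 2100, 3435 and 5036 of 18193 genes were called without the block. In the same comparisons Slfn5 (1456288_at) was called higher at 36 h (1.71). Slfn9 (1436472_at) was called higher at all 5 times, with sizes that rest on untreated replicate 4. Slfn1 was called lower at 48 h, a call lost without untreated replicate 4. Slfn2 was called lower at 12, 24, 36 and 48 h, and Slfn3 at 36 and 48 h. Slfn8 was not called at any time, but at 8 h it was with the day as a block (limma adjusted p = 0.0295). At 36 h Slfn8 was 0.56 higher, and 0.94 (limma adjusted p = 0.0342) without the 4 arrays that stood apart. Of 15 measured interferon signalling genes, 1, 6, 8, 5 and 4 were higher under TCDD from 8 to 48 h and 0 lower. With the day as a block 5, 8, 9, 6 and 5 of the 15 were called. At 24 h these included Usp18 (3.72 ± 0.28), which dampens interferon receptor signalling, Ifng (2.82 ± 0.33), the gene of interferon gamma, and Irf7 (1.81 ± 0.25) and Irf8 (1.59 ± 0.20), interferon regulatory factors.

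Other lists are given beside the same shares of all probe sets without the block, 1.03% to 2.36% under TCDD and 7.63% to 19.3% against untreated cells. With 1 probe set per gene, as in the lists, 403 to 916 of 18193 genes were called under TCDD. Against untreated cells 2100 to 5036 were. Of 15 measured genes of Toll-like receptor 4, NF-kB and AP-1, the route by which LPS acts, 0, 0, 1, 0 and 0 were higher and 0, 0, 0, 0 and 5 lower under TCDD. The 1 at 24 h was Nfkbiz (0.82 ± 0.15), an atypical inhibitor of NF-kB; with the day as a block 1, 1, 2, 1 and 6 of the 15 were called. All 5 AhR target genes were higher at 8, 12 and 24 h and 4 of 5 at 36 and 48 h, with a median difference of 1.51 at 8 h. With the day as a block 5 were called at every time. How the 8 h median compares with the difference of Slfn1 (0.70) was not tested. Of 9 measured genes linked to lymphocyte quiescence, 2, 1, 0, 0 and 0 were higher under TCDD. In vehicle cells 5, 6, 1, 1 and 2 of these 9 were lower than in untreated cells and 0, 0, 0, 1 and 2 higher. The 1 called at 24 h is near the 7.63% of all probe sets called there. With the day as a block 6, 7, 6, 4 and 4 of the 9 were called against untreated cells and 2, 2, 0, 0 and 2 under TCDD.

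Marker lists of other cell types were read beside these values. Of 7 macrophage markers, Csf1r, the receptor of a macrophage growth factor, was higher under TCDD at all 5 times (1.58 to 1.88), and Adgre1 at 24, 36 and 48 h (0.82 to 0.94), while Cd68 was lower at 48 h (-0.60, adjusted p = 0.00263). The summed signal of the 7 at 24 h ran from 2530 to 2910 in TCDD arrays, 1280 to 1450 in vehicle arrays and 1670 to 2170 in untreated ones. Csf1r had the largest change of the 7 at that time, with group means of 10.52 under TCDD and 8.82 in vehicle cells. Itgam, Lyz2, Cd14 and Mrc1 were not called under TCDD at any time. The macrophage markers Itgam, Lyz2 and Mrc1 stayed below 6.21 in every group mean. Cd68 (9.43 to 10.67), Adgre1 (7.31 to 9.21) and Csf1r (7.65 to 10.64) lay above it in every group, untreated cells included. Cd14 lay above it in some groups, such as vehicle cells at 48 h (6.62), and below it in others. No T cell, neutrophil, erythroid or fibroblast marker was called higher under TCDD, and the neutrophil marker Mpo was called lower at 48 h (-1.51, adjusted p = 0.0336). Of the 5 measured T cell markers, Cd8a had group means of 8.62 to 9.38, while Cd4 and Cd3d stayed below 6.21. Cd3g and Cd3e lay above 6.21 in some groups and below it in others. Cd3g was at 6.58 in untreated cells and Cd3e at 6.39 under TCDD at 24 h. The part of these markers in the Schlafen values was not tested.

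The genes whose 11 group means were most like those of Slfn1 (1418612_at) were Tent5a (r = 0.96), Samd9l (r = 0.96), Rmdn2 (r = 0.95), Ifit2 (r = 0.94) and Shfl (r = 0.94). Samd9l, an antiviral restriction factor, went from 7.91 in vehicle cells at 48 h to 10.29 under TCDD at 24 h, the same lowest and highest groups as Slfn1. Within the family the closest to Slfn1 were Slfn8 (r = 0.91) and 1458458_at of Slfn5 (r = 0.91), and Slfn8 and 1456288_at of Slfn5 had r = 0.94.

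For Slfn2 the most alike genes were Fam89a (r = 0.94), Bcar3 (r = 0.90), Cyria (r = 0.89), Nckap1 (r = 0.87) and Tnip2 (r = 0.86). Nckap1, a subunit of the actin-regulating WAVE complex, went from 10.19 in untreated cells to 7.94 in vehicle cells at 24 h. Of the 5, 4 had their lowest mean in vehicle cells at 24 h, as Slfn2 did. These correlations are over 11 groups that share the array scale and the times, and are descriptions.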

How the data were processed

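The authors' deposited values are linear signal intensities, 1 column for each of 44 arrays, for which the submitters' processing notes name GCOS 1.0; what else was done is not given in the sources used here. The values were quantile normalized and turned into log2(value + 16), with no filter on dim probe sets. Leaving out 64 controls of 45101 probe sets, 34945 had 1 gene symbol in the annotation table, 932 had several and 9160 had none; the 11 member probe sets matched the RefSeq gene table by gene identifier. A gene outside the family is represented by its brightest probe set with 1 symbol.

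Tests used limma 3.58.1 (R 4.3.3), with all arrays in 1 fit of the 11 groups, two-sided moderated tests, and Benjamini-Hochberg adjustment over all 45037 probe sets within each of 14 comparisons (vehicle against untreated at 5 times, 4 steps between vehicle times, TCDD against vehicle at 5 times) and an F test of 4 interaction contrasts, with calls at an adjusted p under 0.05. The scripts were tested on simulated data. The design text states that replicates were handled on separate days, and same-numbered arrays share a date, so the numbers pair the samples. Deviations from the group means had a median correlation of 0.09 between same-numbered arrays and -0.03 between others, and it was above 0.1 in 12 of the 20 same-day pairs of a TCDD and a vehicle array. The fit without the day is the main one, and values with the day as a replicate block are given where they change a call of a member or a count of a gene list. All cultures came from 1 cell line, so p-values measure the spread between its cultures.

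The members, gene lists and named genes were chosen with earlier results of these data known. The names outside the family follow a rule: Cyp1a1, the 5 genes most like Slfn1 and Slfn2, up to 4 called members of each list with the largest change, and neighbours of the cluster. The marker genes named singly were chosen after their values were seen. Alternatives were pseudocounts of 1 and 64, values as deposited, a filter on dim probe sets, an intensity trend, only the arrays compared, 1 probe set per gene, the replicate block, and leaving out arrays and days. Promoters came from a RefSeq table (GRCm38.p6). Plots were made in Python 3.11.15 (matplotlib 3.10.9).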

Additional observations from a re-analysis of the deposited data

Results flagged for a closer look

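In 4 of 121 combinations of a member probe set and a group, 1 of the 4 arrays lay far from the other 3, judged by its gap to the nearest of them as a share of the range; chance alone flags about 1 in 20 such combinations. The untreated replicate 4 of Slfn9 (1436472_at) read 4.94, with the other untreated arrays between 7.54 and 7.81, and the vehicle comparisons of this probe set are given above without it. Replicate 3 of the vehicle cells at 8 h read 7.17 for Slfn1 (1418612_at), with the others between 6.61 and 6.67. Replicate 2 of the TCDD cells at 12 h read 12.55 for Slfn2, with the others between 12.24 and 12.29. Replicate 4 of the TCDD cells at 8 h read 4.41 for 1458458_at of Slfn5, with the others between 5.74 and 5.91.

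The TCDD effect on Slfn2 differed between times (limma F test of the interaction, adjusted p = 0.0261): the difference was -0.02 at 8 h, 0.89 at 24 h and -0.10 at 48 h.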

How the results depend on the processing

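No called change of a member reversed its sign under any alternative run. Counts of called members kept within 1.5 times in 266 of 347 alternatives. The 4 calls under TCDD at 24 h were 4 in every fit that left out an array or a day, in the replicate block and in the fit with only the arrays compared. With a replicate block, which pairs arrays of a day, the counts rose from 1 to 2 for vehicle against untreated at 8 h, from 0 to 1 for vehicle at 36 h against 24 h, from 1 to 2 and from 0 to 1 for TCDD at 36 and 48 h, and from 1 to 2 for the test between times; it changed no other of these counts by over 1.5 times. With only the arrays compared, which leaves fewer arrays to estimate the spread, vehicle against untreated gave 0, 1, 1, 2 and 0 calls from 8 to 48 h, the 8 to 12 h step gave 0, and TCDD at 12 and 36 h gave 0 and 0.

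With the filter on dim probe sets, and with 1 probe set per gene, which both leave fewer probe sets to adjust over, vehicle against untreated at 8 h gave 2, vehicle at 36 h against 24 h gave 1, TCDD at 8 h gave 1 and TCDD at 36 h gave 2; TCDD at 48 h gave 2 with the filter and 1 with 1 probe set per gene. For the other settings the cause was not tested. The intensity trend gave 2 for vehicle against untreated at 8 h and 1 for vehicle at 36 h against 24 h. A pseudocount of 1 gave 1 for vehicle against untreated at 12 h and 1 for TCDD at 12 h. A pseudocount of 64 gave 1 for vehicle at 36 h against 24 h, 2 and 1 for TCDD at 36 and 48 h, and 2 between times. Values as deposited gave 2 for TCDD at 36 h. Without the 4 arrays that stood apart, vehicle against untreated gave 1 at 12 h and 2 at 48 h, and TCDD gave 1 at 8 h and 2 at 36 h.

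Leaving out 1 array or 1 day, the counts for vehicle against untreated ran from 0 to 2 at 8 h, 1 to 2 at 12 h, 1 to 3 at 24 h, 3 to 4 at 36 h and 2 to 5 at 48 h. The step from 8 to 12 h ran from 0 to 1, that from 24 to 36 h from 0 to 1, and the others stayed at 0. TCDD ran from 0 to 1 at 8 h, 0 to 2 at 12 h, 0 to 1 at 36 h and 0 to 2 at 48 h, and the test between times from 0 to 2. Leaving out day 2 or 4 ended the 8 to 12 h call of Slfn2 (adjusted p = 0.101 and 0.145), and leaving out any 1 day ended its call between times (adjusted p = 0.106 to 0.366).

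Over all 45037 probe sets the calls depended on the same choices. Under TCDD from 8 to 48 h there were 464, 1022, 911, 601 and 1064 calls, 911, 1970, 1650, 1252 and 2012 with the replicate block, and 144, 176, 499, 289 and 117 with only the arrays compared. Vehicle against untreated gave 4353, 4503, 3435, 5523 and 8693, and with only the arrays compared 1238, 1156, 1090, 1726 and 3810; with 1 probe set per gene it gave 2633, 2640, 2100, 3435 and 5036, and 2766 at 12 h without the 4 arrays. The 4 steps between vehicle times gave 121, 1239, 1166 and 2328, with the replicate block 339, 2301, 2525 and 4025, and with only the arrays compared 0, 240, 43 and 0. The filter gave 182 for the first step and 1829 for the third, which gave 1775 without the 4 arrays. The test between times gave 659, with the block 1658 and with the filter 1003. Leaving out 1 array or 1 day, the lowest counts were 2599, 2646, 1769, 3319 and 6549 for vehicle against untreated, 9, 510, 203 and 639 for the steps, 197, 337, 430, 211 and 333 under TCDD and 97 between times.

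The 4 arrays a group, dim levels near the bottom of the scale (both disagreeing probe sets, Slfn4 and the vehicle levels of Slfn1 and Slfn5) and the lack of untreated cells after 0 h limit what these values show.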

Other observations

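Of the other probe sets that carry a Schlafen name, Slfn10-ps (1444350_at) read 7.90, 7.69, 7.38 and 5.48 in untreated cells, the lowest being replicate 4, 1 of the 4 arrays that stood apart, and had means between 7.66 and 8.55 in the 10 later groups. Slfn5os (1430901_at) stayed between 4.25 and 4.49 in all 11 groups, near the lowest value possible, and Slfnl1 (1455838_at) between 4.97 and 6.06. None of these was called under TCDD at any time. Against untreated cells, low replicate 4 included, Slfn10-ps was called higher in vehicle cells at 36 h only (1.22 ± 0.41, limma adjusted p = 0.0465). With the day as a block it was called higher at all 5 times (limma adjusted p = 0.00319 to 0.0198).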
